A study of Homo sapiens with 12 samples.

Results

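FOXA1 knockdown in the absence of a HER2 inhibitor was examined in SKBR-3 cells, an established HER2-amplified, estrogen receptor-negative breast cancer cell line. Of the 12 RNAseq libraries of the study, the 6 from DMSO-treated cells were compared, 3 with a FOXA1 siRNA pool and 3 with a non-targeting (NT) control siRNA pool. By their labels, the cells received the siRNA pool for 48 h and then DMSO, the solvent of the drug, for 24 h in medium with serum, whereas the methods give 24 h between transfection and the change of medium. The other 6 libraries received the same siRNA pools and then 300 nM lapatinib, an inhibitor of the HER2 and EGFR kinases, for 24 h. They were used only to see which changes recurred in separate samples, and in fits of all 12 libraries. A single cell line and a single siRNA pool per arm were used, so effects of loss of FOXA1 and off-target effects of either pool cannot be told apart. No source says whether the replicates came from separate cultures, and p-values then measure only the spread between these samples.

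FOXA1 is a forkhead transcription factor that binds its sites in closed chromatin and opens them for other factors, among them nuclear receptors such as the estrogen receptor. In the mammary gland, FOXA1 marks the luminal lineage, the cells that line the ducts and secrete milk, and not the basal and myoepithelial layer beneath them. In HER2-amplified tumors without estrogen receptor, FOXA1 is often found together with genes of apocrine glands.

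The 6 libraries held between 30112796 and 32271850 expected counts (median 31317262), and the totals of the groups overlapped. An expected count is an estimated number of reads for a gene and need not be whole. A normalized count is that count divided by the TMM-scaled size of the library and multiplied by the mean depth of the 6 libraries. Expression in SKBR-3 was luminal in these libraries. ERBB2 was at 3073 ± 365 TPM (SD, n = 3, TPM being the share of transcripts corrected for gene length) and KRT19 at 5180 ± 142 TPM with NT siRNA, while ESR1 had 12 to 18 counts and PGR at most 1 count in any library. Of the 12 stromal markers, 9 stayed under 10 counts in all 6 libraries, as did 8 of the 12 immune markers. LUM and MS4A1 were at 0 throughout, and PTPRC, which marks all leukocytes, had at most 4 counts. The summed immune markers lay between 698 and 1160 normalized counts in NT libraries and between 1161 and 1439 after the knockdown. The summed stromal markers lay between 1036 and 1302 and between 858 and 1086, and their part in the results was not tested.

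Replicate 2 of either group stood apart from replicates 1 and 3. The first principal component separated the siRNA pools and held 75.1% of the variance, and the second, with 14.4%, separated both replicates 2 from the other 4 libraries. Within a group, counts of replicates 1 and 3 differed by a chi-square of 3.75 (NT) and 4.2 (FOXA1) per degree of freedom, and pairs that included replicate 2 by 12.72 to 18.5. Same-numbered libraries deviated together from their group means, so the replicate number was also fitted as a block, and list counts from that fit stand in parentheses.

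FOXA1 itself had 8637, 8616 and 8968 normalized counts in NT replicates 1 to 3 and 1197, 1417 and 1624 in FOXA1 siRNA replicates 1 to 3. The groups lay far apart, and each knockdown library kept some FOXA1 transcript. The log2 fold change was -2.63 ± 0.10 (SE, edgeR adjusted p = 4.55e-06), which is 6.18-fold lower. FOXA1 (chr14:37589552-37595249, RefSeq, GRCh38.p14) ranked 1 by TPM among the forkhead genes listed, with 178 ± 5.86 TPM against 78.9 TPM for the next, and ranked 5 at 29.1 ± 4.40 TPM after the knockdown. Its paralogs gave no readable signal in either group, since FOXA2 was at 0 and FOXA3 at 2 counts or fewer in every library. Of the 20 other forkhead genes tested, 7 fell and 3 rose (8 and 5 with the replicate block). However, 3 of the 20 reached 10 counts in FOXA1 siRNA libraries alone, and of the 17 with 10 counts in both groups, 7 fell and 1 rose. FOXK1, a regulator of metabolic genes, rose by a log2 fold change of 0.35 ± 0.06, and FOXK2, its close relative, was at -0.03 ± 0.04.

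Across 13694 genes tested, 2910 fell (21.3%) and 3002 rose (21.9%) at a Benjamini-Hochberg adjusted p under 0.05 in edgeR's quasi-likelihood test. With the replicate block, 30.2% fell and 30.3% rose, and counts of list members from either fit are to be read against its own shares. Where the log2 fold change was also 1 or more, or -1 or less, referred to here as 2-fold, 380 genes fell (2.77%) and 556 rose (4.06%). Values of the 3 libraries of either group did not overlap in 7390 genes (54.0%), so lack of overlap by itself is common here. Genes called at 2-fold were mostly weakly expressed. The median of their mean normalized counts was 97.6 for those that fell and 85.7 for those that rose, compared to 787 for all genes tested, and 192 and 295 of them were under 100. The plot of fold change by expression level shows FOXA1 and several luminal genes among the few abundant genes that fell by more than 2-fold.

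**Figure D1:**
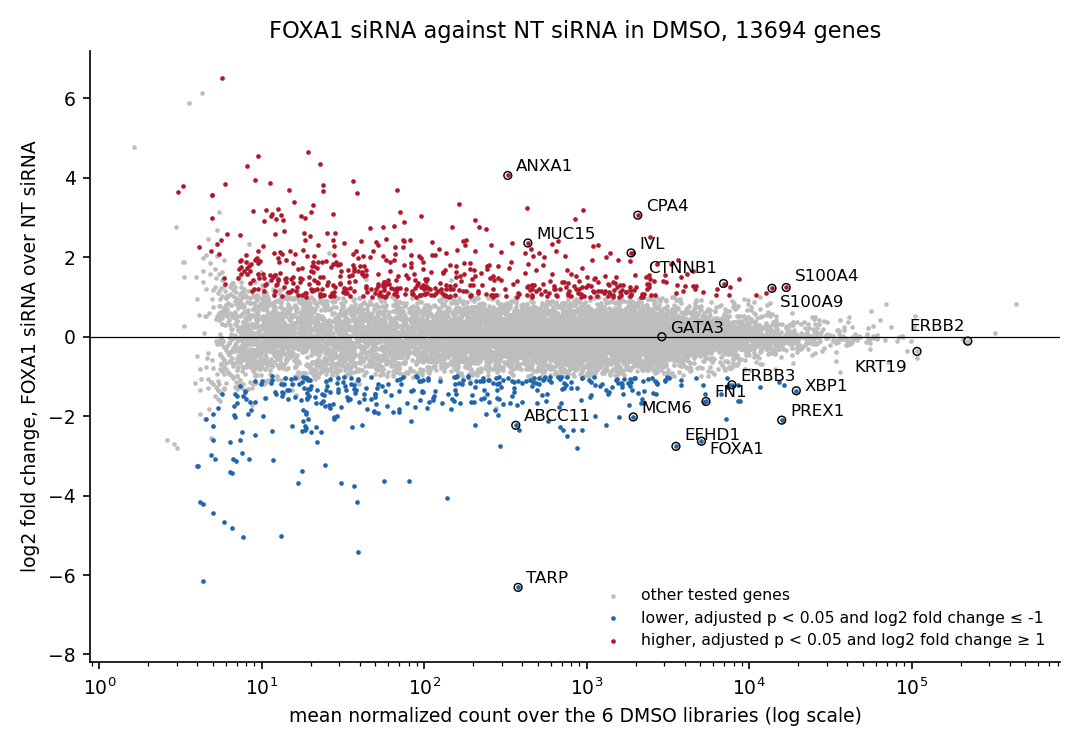
Log2 fold change after FOXA1 siRNA (y axis) against the mean normalized count over the 6 DMSO libraries (x axis, log scale) for the 13694 genes tested. Blue and red points are the 380 genes lower and 556 genes higher at 2-fold, grey points are the others, and named genes are circled: FOXA1, EFHD1, PREX1 and XBP1 lie among the abundant genes that fell and S100A4, S100A9 and CTNNB1 among those that rose, with ERBB2 and GATA3 near 0.

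Luminal transcription factors fell in part. Of the 27 tested, 13 fell (48.1%, against 21.3% of all genes) and 4 rose (14.8%, against 21.9%), or 18 and 5 with the replicate block, with a median log2 fold change of -0.21 compared to -0.01 for all genes. XBP1, a luminal factor that builds the secretory endoplasmic reticulum, had 26097, 29588 and 28469 normalized counts with NT siRNA and 9759, 11436 and 11530 with FOXA1 siRNA. No FOXA1 siRNA library reached the NT range, and the fall was -1.36 ± 0.07 on the log2 scale (edgeR adjusted p = 1.36e-05). TOX3, a chromatin factor of luminal cells and a breast cancer risk gene, fell by 1.54 on the log2 scale from between 151 and 184 normalized counts to between 49.4 and 69.2. CREB3L1, a membrane-bound factor of the secretory pathway, fell by 1.27 on the log2 scale, with 182 to 407 normalized counts with NT siRNA and 95.9 to 158 with FOXA1 siRNA.

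Other luminal factors moved less. SPDEF, an ETS factor of secretory epithelia, had 10649, 12188 and 11255 normalized counts with NT siRNA and 6870, 7777 and 7995 with FOXA1 siRNA, a log2 fold change of -0.59 ± 0.07 (edgeR adjusted p = 0.000432). GATA3 was added after its values were seen. GATA3, the factor that specifies luminal cells together with FOXA1, had 2892, 2898 and 2897 normalized counts with NT siRNA and 2774, 2905 and 3019 with FOXA1 siRNA. Its groups overlapped, and its log2 fold change was 0.00 ± 0.05. TRPS1, a GATA-type repressor present in most breast tumors, was at -0.16 ± 0.10 (edgeR adjusted p = 0.217, and 0.000917 with the replicate block).

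Luminal and secretory products changed in both directions. Of 23 tested, 7 fell (30.4%, against 21.3% of all genes) and 4 rose (17.4%, against 21.9%), or 9 and 6 with the replicate block. The median log2 fold change was 0.01. EFHD1, a calcium-binding protein of mitochondria, had 6122, 6573 and 5800 normalized counts with NT siRNA and 861, 1114 and 759 with FOXA1 siRNA. It fell 6.76-fold (log2 fold change -2.76 ± 0.13, edgeR adjusted p = 7.88e-06), and the loss was similar in size to that of FOXA1 itself. AGR2, a disulfide isomerase that folds mucins, fell from 3825, 4001 and 4575 normalized counts to 1677, 1823 and 2209. The trefoil peptides TFF1 and TFF3, small secreted proteins that are well known targets of estrogen receptor in luminal tumors, fell by 1.16 and 1.17 on the log2 scale. TFF1 lay between 194 and 249 normalized counts in NT libraries and between 84.2 and 125 after the knockdown, in cells with 18 or fewer counts of ESR1.

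The simple-epithelial keratins remained abundant. KRT19 fell by 0.37 on the log2 scale, from a mean of 121406 to 94146 normalized counts, and KRT8 by 0.35. KRT7 was at 0.05 ± 0.06 (edgeR adjusted p = 0.605). The 6 KRT19 values did not overlap, with a lowest NT library of 120632 and a highest FOXA1 siRNA library of 96106.

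Apocrine and androgen-responsive genes had members on either side. Of the 19 tested, 6 fell (31.6%, against 21.3% of all genes) and 4 rose (21.1%, against 21.9%), or 7 and 5 with the replicate block, and 3 of the 19 reached 10 counts in only 1 group. ABCC11, a transporter required for apocrine secretion, had 501, 592 and 715 normalized counts with NT siRNA and 106, 132 and 146 with FOXA1 siRNA. Its fall of 2.23 on the log2 scale (edgeR adjusted p = 4.69e-05) was the deepest in this list among members with a mean of at least 100. DHRS2, a short-chain dehydrogenase and one of the more abundant transcripts of SKBR-3, fell by 0.64 on the log2 scale from a mean of 3166 to 2037 TPM. GGT1, a gamma-glutamyltransferase with near-identical copies that make its count uncertain, rose by 1.04 ± 0.12 on the log2 scale. The others that rose, named after their values were seen, were CLCA2 (log2 fold change 1.99), CYP4Z1 (0.82) and TRPM8 (2.33, edgeR adjusted p = 0.0499). Of the 16 members with 10 counts in both groups, 5 fell and 3 rose.

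**Figure D2:**
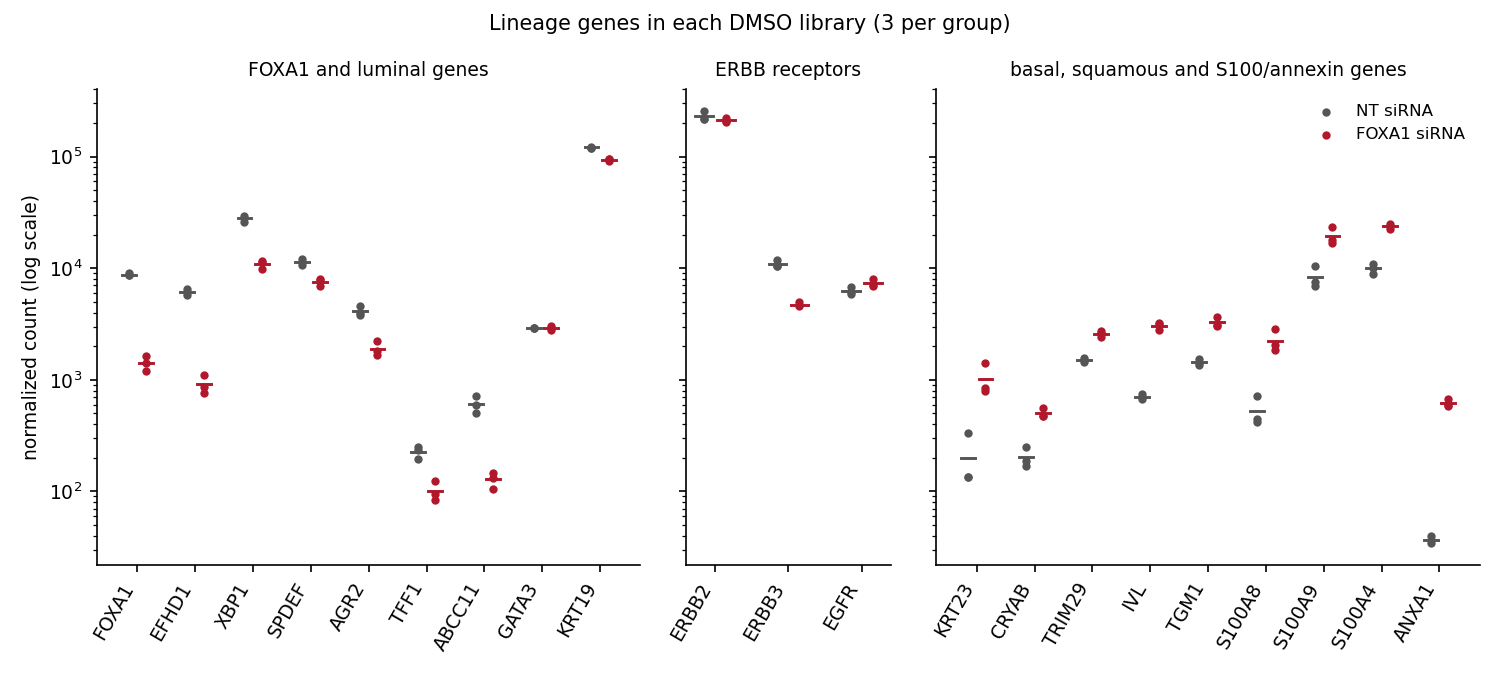
Normalized counts (y axis, log scale) of 21 lineage genes in each DMSO library, with 3 NT siRNA libraries in grey and 3 FOXA1 siRNA libraries in red, and a short line at each mean. The groups separate for every gene shown except GATA3 and ERBB2, and the red points lie below the grey ones for FOXA1, EFHD1, XBP1, ABCC11 and ERBB3 and above them for IVL, S100A8 and ANXA1.

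ERBB3 fell and ERBB2 did not pass the test. ERBB3, the kinase-poor partner through which HER2 signals to PI3K, had 10406, 11863 and 10485 normalized counts with NT siRNA and 4648, 4939 and 4554 with FOXA1 siRNA. Its fall was 2.32-fold (log2 fold change -1.21 ± 0.06, edgeR adjusted p = 9.83e-06), and no library of either group came near the other group. ERBB2, the amplified receptor gene, had 215701, 258339 and 216088 normalized counts with NT siRNA and 209774, 223547 and 204828 with FOXA1 siRNA. Its groups overlapped, and its log2 fold change was -0.11 ± 0.07 (edgeR adjusted p = 0.244, and 0.0138 with the replicate block). EGFR, the other lapatinib target of the family, rose by 0.23 ± 0.08 on the log2 scale (edgeR adjusted p = 0.0393). That call was lost without NT replicate 2 or 3 (edgeR adjusted p = 0.0775 and 0.115) and without FOXA1 siRNA replicate 1 or 3 (0.139 and 0.0699). Of the 10 ERBB receptors and ligands tested, 2 fell and 4 rose (3 and 4 with the replicate block). In the HER2 amplicon, 3 of 14 genes fell (21.4%, near the 21.3% of all genes) and 1 rose (7.1%, against 21.9%), or 5 and 2 with the replicate block, with a median log2 fold change of 0.00. The gene that rose was PPP1R1B, a phosphatase inhibitor near ERBB2 on chromosome 17. It went from 872, 1814 and 877 normalized counts to 3665, 5211 and 3684 (log2 fold change 1.82 ± 0.29).

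Of 24 other receptor tyrosine kinases, 5 fell (20.8%, near the 21.3% of all genes) and 8 rose (33.3%, against 21.9%), or 7 and 11 with the replicate block. FGFR4, a fibroblast growth factor receptor, fell 3.01-fold from 1334, 1281 and 1559 normalized counts to 418, 442 and 528. RYK, a Wnt-binding pseudokinase, fell by 1.19 ± 0.06 on the log2 scale.

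Basal genes rose in part, and 0 passed the test as lower. Of 28 tested, 13 rose (46.4%, against 21.9% of all genes), and of the 24 with 10 counts in both groups, 12 rose. With the replicate block, 15 rose and 3 fell, when 30.3% and 30.2% of all genes did so, whereas DESeq2 and an unadjusted p under 0.05 in edgeR each gave 0 that fell. The list was far from a full basal program, since 7 of its 35 members stayed under 10 counts in all 6 libraries, and SOX10 was at 1 count or fewer. The summed list rose from between 12355 and 13577 normalized counts to between 17101 and 18630, so it remained small beside the keratins of luminal cells. KRT23, an acidic keratin, had 135, 334 and 134 normalized counts with NT siRNA and 852, 1406 and 794 with FOXA1 siRNA (log2 fold change 2.34 ± 0.37). CRYAB, a small heat shock protein of myoepithelium, rose by 1.32 ± 0.15 on the log2 scale. TRIM29, a basal-cell ubiquitin ligase, rose by 0.78 ± 0.06, and SOX9, a progenitor factor, by 0.69 ± 0.06.

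Squamous differentiation genes rose more often than they fell. Of the 34 listed genes only 13 could be tested, all 13 with 10 counts in both groups. The other 21 stayed under 10 counts in all 6 libraries, 11 of them at 0. Of the 13, 7 rose (53.8%, against 21.9% of all genes) and 2 fell (15.4%, against 21.3%), or 8 and 2 with the replicate block. The 7 that rose include S100A8 and S100A9, which are described below with the S100 genes. IVL, the involucrin precursor of the cornified envelope, had 669, 747 and 697 normalized counts with NT siRNA and 3135, 2793 and 3204 with FOXA1 siRNA. It rose 4.32-fold (log2 fold change 2.11 ± 0.07, edgeR adjusted p = 3.30e-06), and the spread within groups was small beside that difference. TGM1, the transglutaminase that cross-links involucrin, rose by 1.19 ± 0.08 on the log2 scale from a mean of 31.6 to 72.0 TPM. KRT4, a keratin of internal squamous epithelia, moved the other way, with a fall of 0.50 on the log2 scale. So did CALML5, named after its values were seen, the only member of the list to fall at 2-fold (log2 fold change -1.34). LY6D, a surface protein of keratinocytes, is outside that list and was named for its large fold. It rose from 27.2, 51.4 and 35.3 normalized counts to 262, 254 and 259.

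S100 and annexin genes rose more often than genes at large. Of 27 tested, 15 rose (55.6%, against 21.9% of all genes) and 9 of the 15 rose at 2-fold, while 4 fell (17 and 4 with the replicate block). ANXA1, a phospholipid-binding protein that limits inflammation, had 34.2, 40.1 and 36.3 normalized counts with NT siRNA and 677, 580 and 590 with FOXA1 siRNA. This 16.6-fold rise (log2 fold change 4.06 ± 0.12, edgeR adjusted p = 1.93e-06) took a gene at 1.62 ± 0.221 TPM to 27.5 ± 2.43 TPM. ANXA8 and ANXA8L2 rose by 2.76 and 2.44 on the log2 scale, but they are near-identical copies whose reads the counting may have divided between them. S100A8 and S100A9, the subunits of calprotectin, rose together. S100A9 went from 7598, 10371 and 6887 normalized counts to 17837, 23442 and 16653, with the highest value of either group in replicate 2. S100A4, a regulator of cell motility, rose from between 8922 and 11008 to between 22304 and 24789 normalized counts and was at 3218 ± 170 TPM after the knockdown. S100A3, a hair-cuticle calcium-binding protein, rose by 2.72 ± 0.26 and the abundant S100A6 by 0.42 ± 0.05 on the log2 scale.

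**Figure D3:**
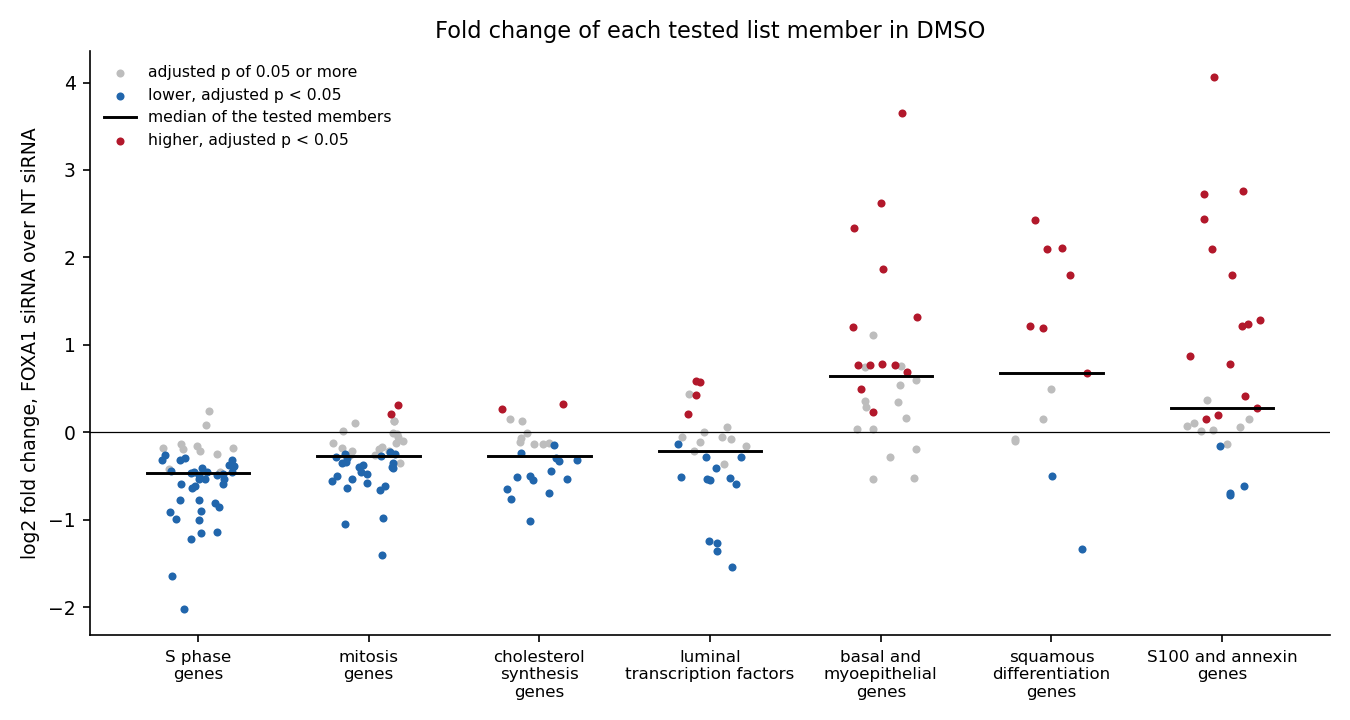
Log2 fold change after FOXA1 siRNA (y axis) of every tested member of 7 gene lists (x axis), in blue where lower and in red where higher at an adjusted p under 0.05, in grey otherwise, with the median as a black line. S phase genes lie below 0 with a median of -0.46, basal genes have a median of 0.64 and squamous genes of 0.68, and ANXA1 is the highest point at 4.06.

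DNA replication genes fell widely but mostly by little. Of 48 S phase genes, 37 fell (77.1%, against 21.3% of all genes) and 0 rose in edgeR's test (46 and 1 with the replicate block), with a median log2 fold change of -0.46. An unadjusted p under 0.05 and DESeq2 also gave 0 that rose. The number lower was 22 without NT replicate 1, 23 without NT replicate 3 and 24 without FOXA1 siRNA replicate 3. Shares of all genes in those 3 fits are not given here. Without both replicates 2, a fit chosen after seeing the data, 44 fell and 1 rose, when 28.0% and 27.4% of all genes did so. MCM6, a subunit of the replicative helicase, had 3361, 2689 and 3257 normalized counts with NT siRNA and 774, 803 and 712 with FOXA1 siRNA. It fell 4.06-fold (log2 fold change -2.02 ± 0.09, edgeR adjusted p = 7.76e-06), whereas MCM4, another subunit, fell by 0.44 on the log2 scale. TK1, thymidine kinase, fell by 1.64, PCNA, the sliding clamp of DNA polymerases, by 1.22, TYMS, thymidylate synthase, by 1.15, and CDC45, the helicase activator, by 1.14 on the log2 scale. RRM2, the regulated subunit of ribonucleotide reductase, had 13737, 8799 and 13356 normalized counts with NT siRNA and 7883, 5752 and 6872 with FOXA1 siRNA. Replicate 2 was lowest in either group, and this held for the list as a whole. Summed S phase genes were at 139241, 106302 and 134670 normalized counts with NT siRNA and at 92728, 76869 and 84395 with FOXA1 siRNA. The median difference within replicate numbers 1, 2 and 3 was -0.47, -0.38 and -0.58 on the log2 scale, so the direction did not depend on replicate 2.

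Mitotic genes fell less. Of 45 tested, 25 fell (55.6%, against 21.3% of all genes) and 2 rose (4.4%, against 21.9%), or 35 and 5 with the replicate block. The median log2 fold change was -0.27. The number lower was 13 without NT replicate 1, 15 without NT replicate 3, 14 without FOXA1 siRNA replicate 3 and 10 with all 12 libraries in 1 model. Shares of all genes in those fits are not given here. Without both replicates 2, 35 fell and 2 rose, when 28.0% and 27.4% of all genes did so. CCNA2, cyclin A, fell from 4144, 3165 and 3803 normalized counts to 1468, 1418 and 1291. MYBL2, a factor that activates late cell-cycle genes, fell by 1.05 ± 0.11 on the log2 scale. MKI67, the proliferation antigen Ki-67, was at -0.18 ± 0.10 (edgeR adjusted p = 0.211, and 0.0184 with the replicate block), and TOP2A, a topoisomerase near ERBB2 on chromosome 17, at -0.12 ± 0.12 (0.456, and 0.0268 with the block).

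Regulators of entry into the cell cycle changed in opposite directions. CCND1, cyclin D1, fell 2.33-fold from 9159, 12525 and 9883 normalized counts to 4051, 5367 and 4132 (edgeR adjusted p = 0.000381). CDK6, a kinase partner of cyclin D, rose 2.85-fold from 1161, 1286 and 1157 normalized counts to 3746, 3031 and 3508 (edgeR adjusted p = 1.53e-05). MYC, a driver of growth genes, rose 1.71-fold to a mean of 10836 normalized counts. MDM2, the ubiquitin ligase of p53, fell by 0.84 on the log2 scale, while CCNG1, another p53 target, rose by 0.75. Of 23 p53 targets, 6 fell (26.1%, against 21.3% of all genes) and 8 rose (34.8%, against 21.9%), or 7 and 10 with the replicate block. Of 30 ribosome biogenesis genes, 13 rose (43.3%, against 21.9% of all genes) and 4 fell (13.3%, against 21.3%), or 16 and 6 with the block. Their median log2 fold change was 0.10.

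Cholesterol synthesis genes fell in the main. Of 24 tested, 14 fell (58.3%, against 21.3% of all genes) and 2 rose (8.3%, against 21.9%), or 17 and 4 with the replicate block. Their median log2 fold change was -0.27. Without NT replicate 3 or FOXA1 siRNA replicate 1, 9 fell, and shares of all genes in those fits are not given here. Without both replicates 2, 18 fell and 2 rose, when 28.0% and 27.4% of all genes did so. ACAT2, the thiolase at the start of the pathway, fell by 1.01 ± 0.18 on the log2 scale. SQLE, squalene epoxidase, was at -0.13 ± 0.07 (edgeR adjusted p = 0.176, and 0.0352 with the replicate block). C14orf1, a scaffold of sterol synthesis enzymes outside that list, fell from 1273, 1052 and 1284 normalized counts to 255, 222 and 226. Fatty acid genes had no shared direction, with 9 of 38 lower (23.7%, against 21.3% of all genes) and 12 higher (31.6%, against 21.9%). With the replicate block, 15 fell and 17 rose. FASN, the fatty acid synthase that SKBR-3 expresses strongly, was at 2012 TPM with NT siRNA and 1773 TPM with FOXA1 siRNA (edgeR adjusted p = 0.198, and 0.000148 with the replicate block). ACLY, which supplies its acetyl-CoA, fell by 0.38 on the log2 scale. ACADM, of fatty acid oxidation, rose by 1.20 ± 0.07, and DGAT2, which makes triglyceride, by 1.30 ± 0.27.

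Genes of the secretory endoplasmic reticulum, many of them known targets of XBP1, fell more often than they rose. Of 37 tested, 18 fell (48.6%, against 21.3% of all genes) and 8 rose (21.6%, near the 21.9%), or 22 and 8 with the replicate block. Their median log2 fold change was -0.12, and a part of XBP1 in it was not tested. SSR1, a subunit of the translocon-associated complex, had 5211, 5124 and 5079 normalized counts with NT siRNA and 2435, 2313 and 2524 with FOXA1 siRNA, and was the only member to fall at 2-fold. The lectin chaperones diverged, with CALR lower by 0.38 and CANX higher by 0.66 on the log2 scale. Of 29 ATF4 and amino acid genes, 9 fell (31.0%, against 21.3% of all genes) and 6 rose (20.7%, near the 21.9%), or 15 and 8 with the replicate block. SLC7A5, the leucine transporter, fell by 0.61 on the log2 scale from a mean of 554 to 362 TPM.

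Genes of the epithelial-mesenchymal transition moved both ways, and mesenchymal markers stayed undetectable or nearly so. VIM had at most 5 counts, and CDH2, ZEB1, ZEB2 and SNAI2 at most 1 count in any of the 6 libraries. Of the 28 genes listed, 13 could be tested, 6 of which fell (46.2%, against 21.3% of all genes) and 5 rose (38.5%, against 21.9%). FN1, fibronectin, had 7898, 9728 and 6910 normalized counts with NT siRNA and 2669, 3055 and 2225 with FOXA1 siRNA (log2 fold change -1.63 ± 0.15, edgeR adjusted p = 0.000113). ITGA5, the alpha subunit of the fibronectin receptor, fell from 377, 616 and 376 to 86.6, 181 and 78.1 normalized counts. PLAU, the urokinase protease, fell by 1.12 on the log2 scale. CD44, the hyaluronan receptor, rose from 64.5, 67.9 and 80.4 to 250, 211 and 272 normalized counts. Its log2 fold change was 1.78 ± 0.15 (edgeR adjusted p = 8.20e-05).

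Among matrix and adhesion genes, 3 of 27 collagens, laminins and integrins fell (11.1%, against 21.3% of all genes) and 9 rose (33.3%, against 21.9%). With the replicate block, 8 fell and 10 rose. COL5A2, a fibrillar collagen, rose by 1.29 ± 0.30 on the log2 scale from 1320, 705 and 901 normalized counts to 3335, 1584 and 2225, and LAMB1, a laminin chain, by 0.35 ± 0.04. Epithelial junction genes rose more often than they fell. Of 29 tested, 13 rose (44.8%, against 21.9% of all genes) and 8 fell (27.6%, against 21.3%). With the replicate block, 16 rose and 8 fell, and the same numbers did so without both replicates 2. Without FOXA1 siRNA replicate 1, 4 fell. CTNNB1, beta-catenin of adherens junctions and Wnt signaling, had 3756, 4541 and 3527 normalized counts with NT siRNA and 10065, 9868 and 9914 with FOXA1 siRNA, a 2.52-fold rise (edgeR adjusted p = 2.47e-05). CTNNA1, its partner alpha-catenin, rose by 0.50 ± 0.03 and ESRP1, an epithelial splicing factor, by 1.14 ± 0.07 on the log2 scale. CLDN4, a tight junction claudin, rose by 0.35 ± 0.05.

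In each list of developmental signaling, some members fell and others rose. Of 23 Notch genes, 7 fell (30.4%, against 21.3% of all genes), 4 of them at 2-fold, when 2.77% of all genes did so. Only 3 of the 23 rose, compared to 21.9% of all genes. With the replicate block, 10 fell and 5 rose, when 30.2% and 30.3% of all genes did so. JAG2, a Notch ligand, had 348, 378 and 341 normalized counts with NT siRNA and 126, 147 and 119 with FOXA1 siRNA. HES4, a Notch target, fell by 1.08 and LFNG, a glycosyltransferase that tunes the receptors, by 1.02 on the log2 scale. Of 29 Wnt genes, 7 fell (24.1%) and 5 rose (17.2%), near the 21.3% and 21.9% of all genes, and 9 and 10 did so with the replicate block. Of the 25 with 10 counts in both groups, 7 fell and 4 rose without the block. TCF7L1, a repressor of Wnt targets, and the ligand WNT9A each fell by 1.12 on the log2 scale, whereas WNT5A, a ligand of non-canonical signaling, rose by 0.67 ± 0.13. Of 29 genes of TGF-beta and BMP signaling, 9 fell (31.0%, against 21.3% of all genes) and 7 rose (24.1%, near the 21.9%), or 15 and 7 with the replicate block. BAMBI, a decoy receptor, fell from 1337, 1105 and 1249 to 510, 424 and 566 normalized counts. TGFB2, a ligand, fell by 1.11 ± 0.16 on the log2 scale. Among YAP targets, 9 of 23 fell (39.1%, against 21.3% of all genes) and 6 rose (26.1%, against 21.9%), or 12 and 7 with the replicate block. Of these targets, NDRG1, also a hypoxia-responsive gene, fell from a mean of 22672 to 9828 normalized counts.

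Forkhead factors recognize a core of 7 letters, so the 250 bases before the RefSeq start site (GRCh38.p14) were searched for TGTTTAC and TATTTAC on both strands, where the reverse strand reads GTAAACA and GTAAATA. Of 27305 RefSeq promoters, 1460 (5.3%) held a match. A promoter was found for 10826 of the 13694 genes tested (79.1%). Because this coverage was incomplete, genes that changed were not compared with those that did not. Of those 10826, 343 (3.2%) held a match. Of the 97 genes that met the rule for named genes and were called at 2-fold, 66 had a promoter, and 4 of the 66 held a match. These were BAMBI, TGFB2, FGB and CD44, which are shown because they fell (the first 3) or rose (CD44) together with this letter pattern near their start. The capitals mark the match, and all 4 windows are on the plus strand. The windows lie at chr10:28677463-28677520 (BAMBI), chr1:218345088-218345154 (TGFB2), chr4:154562824-154562890 (FGB) and chr11:35138947-35139013 (CD44).
BAMBI: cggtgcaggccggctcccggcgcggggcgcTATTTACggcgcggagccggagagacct
TGFB2: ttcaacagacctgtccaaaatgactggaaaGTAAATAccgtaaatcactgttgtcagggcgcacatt
FGB: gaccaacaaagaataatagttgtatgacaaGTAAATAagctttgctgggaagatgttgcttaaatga
CD44: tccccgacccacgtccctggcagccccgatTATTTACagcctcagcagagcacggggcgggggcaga
The match begins 28 bases before the start site in BAMBI, 218 in TGFB2, 126 in FGB and 194 in CD44. No binding was measured in these libraries, and most sites of FOXA1 are known to lie far from promoters.

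FGB, the fibrinogen beta chain made by liver, belonged to a list of gut and liver lineage genes in which FOXA factors act in those organs. Only 5 of its 28 members could be tested, 2 of them with 10 counts in NT libraries alone and 1 in FOXA1 siRNA libraries alone. GATA6, an endodermal factor, fell from 676, 586 and 670 to 329, 282 and 271 normalized counts (edgeR adjusted p = 0.000111). FGB went from between 24.2 and 27.8 to between 4.12 and 6.78 normalized counts, a low level in either group.

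Interferon-stimulated genes mostly did not pass the test. Of 42 tested, 6 fell and 6 rose (14.3% each, below the shares of all genes), and 3 of the 42 reached 10 counts in FOXA1 siRNA libraries alone. With the replicate block, 7 fell and 18 rose, when 30.2% and 30.3% of all genes did so, and 16 rose without NT replicate 2. GBP2, a guanylate-binding protein, rose from 74.5, 91.5 and 61.8 to 266, 316 and 241 normalized counts. LGALS3BP, a secreted glycoprotein, was at 0.31 ± 0.14 (edgeR adjusted p = 0.109, and 8.88e-06 with the replicate block). Among 23 NF-kB and chemokine genes, 4 fell and 3 rose (9 and 6 with the replicate block). ICAM1, an adhesion receptor for leukocytes, fell from 124, 258 and 104 to 45.4, 72.6 and 35.6 normalized counts.

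Acute phase and complement genes rose more often than genes at large. Of 18 tested, 11 rose (61.1%, against 21.9% of all genes) and 1 fell, and of the 15 with 10 counts in both groups, 9 rose and 0 fell. Over the 18, 14 rose and 2 fell with the replicate block, 10 and 1 with DESeq2, and 12 and 2 at an unadjusted p under 0.05 in edgeR. LCN2, lipocalin 2, an iron-withholding protein of inflamed epithelia, had 149, 252 and 151 normalized counts with NT siRNA and 738, 910 and 601 with FOXA1 siRNA (log2 fold change 2.03 ± 0.23, edgeR adjusted p = 0.000337). The gene that fell was CP, ceruloplasmin, a copper-carrying oxidase, which is named after its values were seen. It went from between 27.5 and 70.9 to between 1.98 and 6.19 normalized counts, and its log2 fold change of -3.22 ± 0.53 was the largest in size among the 12 members called. CLU, the chaperone clusterin, rose by 0.36 ± 0.05 on the log2 scale. Of 24 mucins and enzymes of O-glycan synthesis, 12 rose, compared to 21.9% of all genes, and 5 fell (20.8%, near the 21.3% of all genes). With the replicate block, 14 rose and 8 fell, when 30.3% and 30.2% of all genes did so. MUC15, a membrane mucin, had 131, 162 and 130 normalized counts with NT siRNA and 730, 730 and 720 with FOXA1 siRNA. GALNT3, which starts O-glycan chains, rose by 1.04 ± 0.07, while the secreted mucin MUC5B and the branching enzyme GCNT1 each fell by 1.14 on the log2 scale. The deepest fall in the list, by 2.07, was that of ST6GALNAC2, a sialyltransferase named after its values were seen, with 38.3 to 55.9 normalized counts in NT libraries and 5.16 to 17.4 after the knockdown.

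Feedback genes of the ERK pathway and AP-1 factors had 6 of 24 members lower (25.0%, against 21.3% of all genes) and 8 higher (33.3%, against 21.9%), or 6 and 14 with the replicate block. ETV1, an ETS factor that ERK activates, rose from 63.5, 43.2 and 73.5 to 297, 294 and 303 normalized counts. SPRY2, a feedback inhibitor, rose by 1.15 ± 0.14 on the log2 scale. Of the 28 neuronal and neuroendocrine genes, 10 could be tested, 5 of which rose and 2 fell (6 and 2 with the replicate block). STMN3, a microtubule regulator of neurons, rose by 1.82 ± 0.15, and REST, the repressor of neuronal genes, fell by 0.53 ± 0.08 on the log2 scale.

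**Figure D4:**
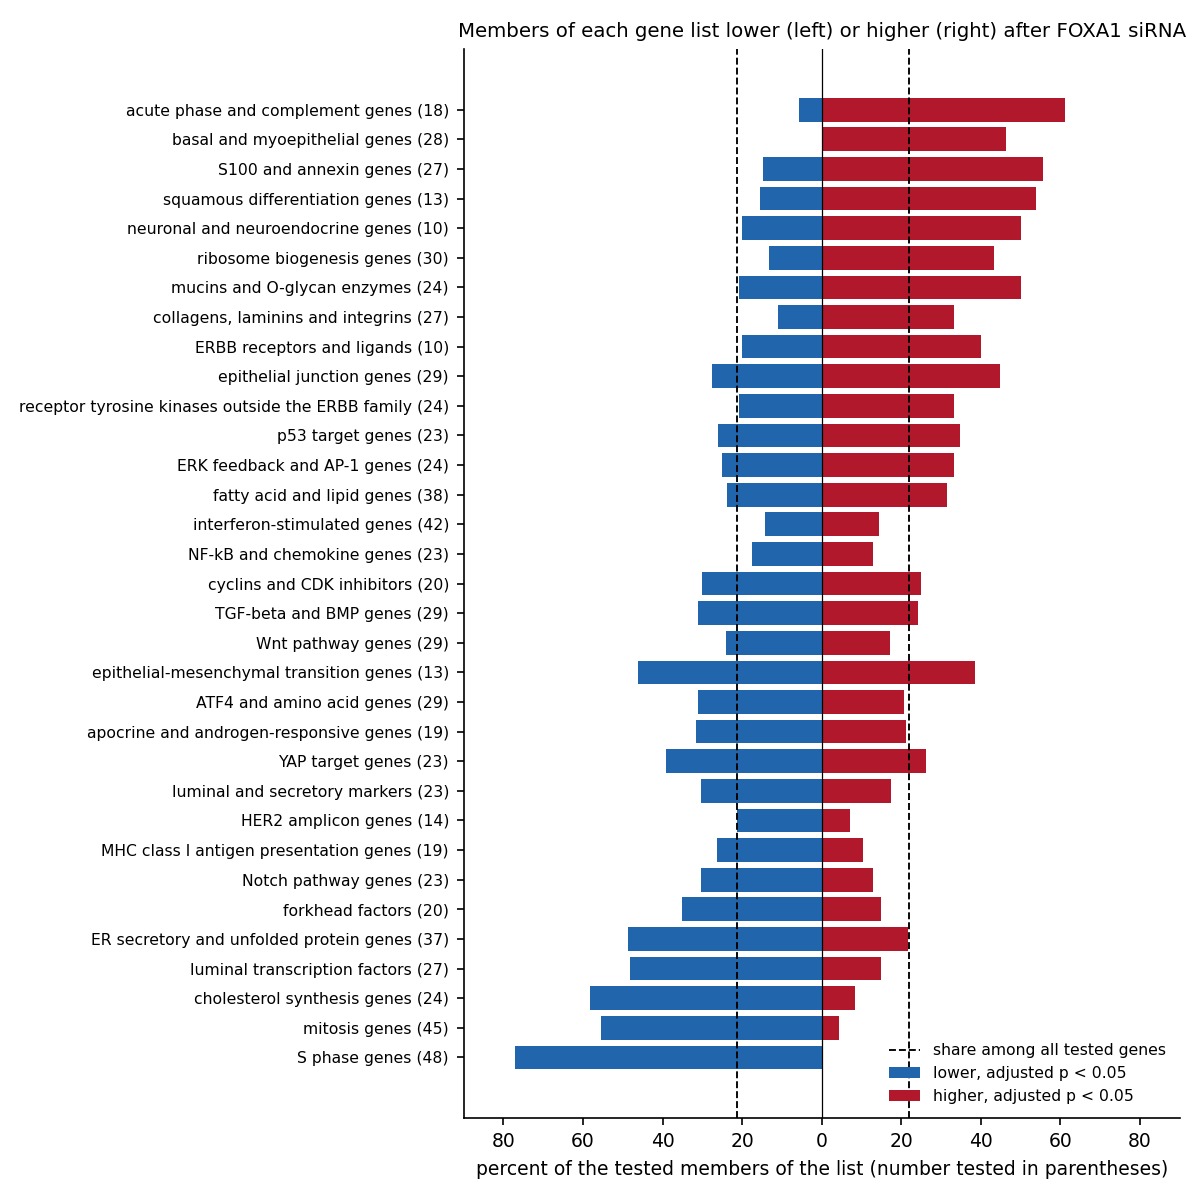
Percent of the tested members of each gene list (y axis, number tested in parentheses) that were lower (blue, left) or higher (red, right) at an adjusted p under 0.05, for the lists with at least 10 members tested. The dashed lines mark 21.3% and 21.9%, the shares of all 13694 genes: S phase genes reach 77.1% lower, and acute phase genes 61.1% and S100 and annexin genes 55.6% higher.

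Among genes called at 2-fold, those outside the lists that lost most counts included PREX1, an activator of Rac GTPases in HER2-positive cells, with 28800, 22852 and 25441 normalized counts with NT siRNA and 5988, 5942 and 5998 with FOXA1 siRNA. The knockdown libraries were nearly equal while the NT libraries spread more, and the fall was 4.30-fold. BCAS1, amplified in breast cancer, RNF114, a ubiquitin ligase, and the imprinted PEG10 fell by 1.61, 1.63 and 2.07 on the log2 scale. IGFBP5, a binding protein of insulin-like growth factors, fell by 1.13, and TP53INP2, an autophagy factor, fell by 1.26 on the log2 scale. Of all genes called at 2-fold, those that gained most counts were S100A4, S100A9, RAC1, the Rac GTPase itself (1.09 ± 0.09), SYPL1, a vesicle membrane protein (1.45 ± 0.08), CAMK2N1, an inhibitor of CaM kinase II (1.04 ± 0.07), DDIT4, an inhibitor of mTORC1 (1.25 ± 0.23), CTNNB1 and SETD7, a lysine methyltransferase (1.06 ± 0.05).

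The deepest fall among genes with a mean of at least 100 was that of TARP, a transcript of the T cell receptor gamma locus known from androgen-responsive prostate cells. It had 797, 527 and 914 normalized counts with NT siRNA and 6.19, 10.6 and 10.9 with FOXA1 siRNA, a log2 fold change of -6.31 ± 0.31 (edgeR adjusted p = 8.39e-06). TARP overlaps other transcripts of that locus, and the division of reads among them is uncertain. AKAP2, an anchor of protein kinase A that overlaps a neighboring gene, had 148, 423 and 215 normalized counts with NT siRNA and 0, 45.5 and 0 with FOXA1 siRNA, and its call was lost with DESeq2 (adjusted p = 0.158, against 0.00883 in edgeR). Below them came RND1, a small GTPase, SIGLEC6, a sialic acid-binding lectin, ABHD10, a mitochondrial hydrolase, ATP8B2, a lipid flippase, NCOA7, PRR15 and FAM65A, whose log2 fold changes lay between -2.79 and -2.27.

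Among genes with a mean of at least 100, those that rose most after ANXA1 were PPYR1, a neuropeptide Y receptor gene with a near-identical copy, ENDOU, an endoribonuclease, SLC26A2, a sulfate transporter, and CPA4, a carboxypeptidase, whose log2 fold changes lay between 3.06 and 3.34. CPA4 had 416, 478 and 427 normalized counts with NT siRNA and 3770, 3908 and 3362 with FOXA1 siRNA, and at 80.1 ± 6.51 TPM it was well expressed after the knockdown. UNC5B, a netrin receptor, rose by 2.97 ± 0.21, ACOT11, a fatty acyl-CoA thioesterase, by 2.94 ± 0.31 and GJA5, the gap junction protein connexin 40, by 2.52 ± 0.23 on the log2 scale.

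Most of the changes at 2-fold recurred in the 6 lapatinib libraries, which share no sample with the DMSO comparison. There, 535 of 13727 genes fell (3.90%) and 619 rose (4.51%) at 2-fold. Of the 380 genes that fell in DMSO, 241 also fell at 2-fold with lapatinib, which is 63.4% of the DMSO list and 45.0% of the lapatinib list. Of the 556 that rose, 360 also rose, which is 64.7% and 58.2%. At an adjusted p under 0.05 with no fold limit, 292 of 354 and 439 of 536 genes tested in both went the same way, and 1 and 2 the opposite way. FOXA1 had a log2 fold change of -2.69 with lapatinib, and XBP1, ERBB3 and IVL had -1.53, -1.36 and 2.07.

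**Figure D5:**
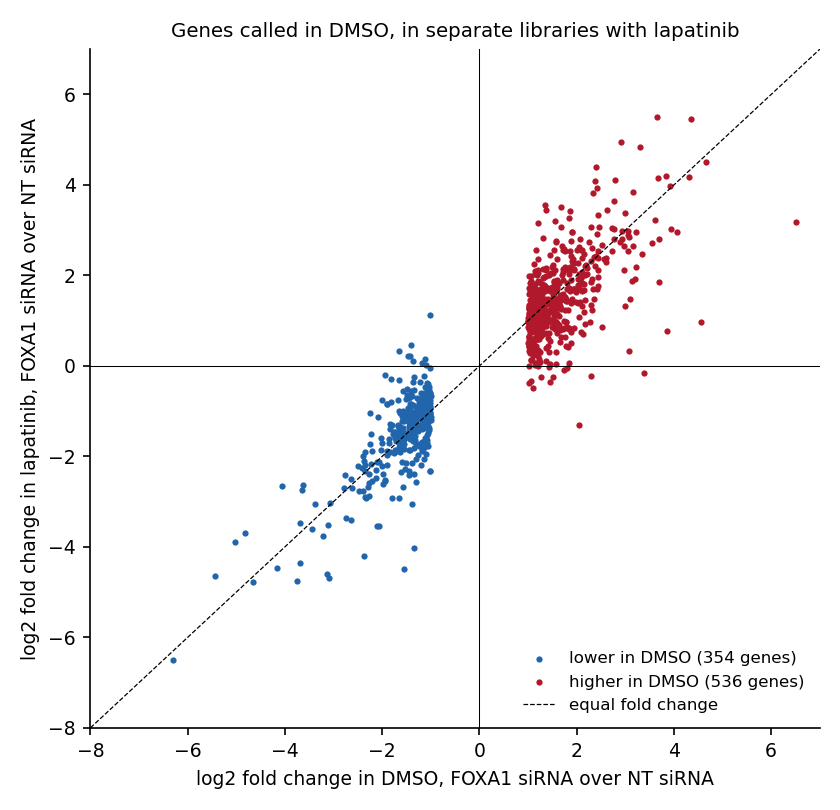
Log2 fold change after FOXA1 siRNA in DMSO (x axis) and in the separate lapatinib libraries (y axis) for the 354 genes that fell (blue) and 536 that rose (red) at 2-fold in DMSO and were tested in both, with a dashed line of equal fold change. Nearly all points keep their side of 0 on the y axis, with 345 of 354 and 522 of 536 of the same sign.

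The fall of replication genes did not recur as a group. With lapatinib, 7 of the 48 S phase genes fell and 9 rose, with a median log2 fold change of 0.06, and 1 of 45 mitotic genes fell and 11 rose, with a median of 0.31. Of all 13727 genes, 22.2% fell and 22.7% rose at that threshold. The difference between the effect in lapatinib and that in DMSO was itself tested as an interaction over all 12 libraries. It passed edgeR's adjusted p of 0.05 with a positive sign in 15 of the 48 S phase genes and with a negative sign in 1, compared to 3.99% and 3.20% of all genes. MCM6 fell with lapatinib as well, by 1.60 on the log2 scale. The fall of cholesterol synthesis genes did not recur as a group either. With lapatinib, 7 of 24 fell and 5 rose, with a median log2 fold change of 0.06. Their interaction passed with a positive sign in 6 of the 24 and with a negative sign in 0. Luminal transcription factors fell in 16 of 28 tested with lapatinib, and basal genes rose in 15 of 25 and squamous genes in 8 of 13.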

How the data were processed

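RNAseq of SKBR-3 cells was taken per library from the tables the authors deposited. These hold for each of 20531 genes an expected count, with RSEM named in the submitters' processing notes, and the TPM and FPKM that go with it. The authors also deposited an upper-quartile normalized signal. The methods give hg38, STAR and Salmon, and the processing notes also name DESeq2 1.12.3 and R 3.2.2. The labels and protocols disagree on the library kit, and strand use in counting is not given in the sources used here, so overlapping and antisense genes are uncertain. TPM served for levels only, and FPKM and signal were not used. Of the counts, 0.031% to 0.046% were in 29 rows without a symbol.

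Expected counts were rounded and tested in R 4.3.3 with edgeR 4.0.16 (TMM, glmQLFit, glmQLFTest) for every gene that reached 10 counts in any of the 6 libraries. The threshold for a call was 0.05 after Benjamini-Hochberg adjustment over all genes tested. The standard error was the log2 fold change divided by the square root of F. The lapatinib comparison was fitted in the same way on its own 6 libraries and the interaction on all 12. The procedure was tested on simulated data. The gene lists, from general knowledge, and the samples compared were chosen with earlier results of these data known.

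The rule for named genes took FOXA1, in each direction at most 12 genes of largest fold (called at 2-fold, no overlap, mean of at least 100 normalized counts), at most 8 of largest count change, and in each list up to 6 called members per direction with that mean and the 3 most abundant. Not all are printed, some items are not reported here, and genes outside the rule are marked in the text.

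Same-numbered libraries of the 2 groups correlated in their deviations from the group means (Pearson 0.364, 0.547 and 0.359 over 11508 genes for replicates 1 to 3, and -0.422 to 0.179 for unlike numbers), so the numbers, taken from the labels, pair the libraries. Alternatives were RLE and upper-quartile scaling, DESeq2 1.42.0, no count filter, at least 10 counts in every sample, all 12 libraries in 1 model, the replicate block, no fold minimum, an adjusted p under 0.01, each library left out and, chosen after seeing the data, both replicates 2 left out and the replicate block in the interaction.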

Additional observations from a re-analysis of the deposited data

Results flagged for a closer look

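For 18 genes named above, the effect of FOXA1 siRNA in lapatinib differed from that in DMSO by edgeR's interaction test over all 12 libraries at an adjusted p under 0.05. Each difference below is the log2 fold change in lapatinib minus that in DMSO, and a rise or fall that was smaller with lapatinib appears as a difference of the opposite sign. No cause was tested.

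Among lineage genes, GATA3 differed by -0.79, with a log2 fold change of 0.00 in DMSO and -0.81 in lapatinib. SOX9 differed by -0.55, since it was at 0.69 in DMSO and 0.13 in lapatinib. ERBB2 differed by -0.31 (-0.11 and -0.45), and FOXK2 by 0.21 (-0.03 and 0.16).

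Several genes with large rises in DMSO had smaller ones in lapatinib. The difference was -1.07 for ANXA1 (4.06 and 2.97), -1.26 for SLC26A2 (3.20 and 1.92), -1.39 for STMN3 (1.82 and 0.41) and -0.87 for MUC15 (2.36 and 1.47). MYC, LAMB1 and CANX had larger rises in lapatinib, with differences of 0.52, 0.61 and 0.24.

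Of genes that fell in DMSO, LFNG had a deeper fall in lapatinib, with a difference of -1.28 (-1.02 and -2.32). The others were nearer to 0 in lapatinib, with differences of 1.29 for WNT9A, 0.94 for MUC5B, 0.63 for TK1, 0.53 for HES4, 0.31 for CALR and 0.29 for SLC7A5.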

How the results depend on the processing

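The counts of 380 lower and 556 higher genes at 2-fold kept within 1.5 times under RLE scaling (380 and 556), upper-quartile scaling (376 and 553), DESeq2 (344 and 506), no count filter (404 and 570), at least 10 counts in every sample (265 and 395), all 12 libraries in 1 model (420 and 577), an adjusted p under 0.01 (294 and 434) and both replicates 2 left out (432 and 659, chosen after seeing the data). Leaving out each library gave 330 to 409 lower and 462 to 676 higher. Without a fold minimum, 2910 fell and 3002 rose, and 1898 and 2071 did so in both DMSO and lapatinib, against 241 and 360 at 2-fold. With the replicate block, 414 fell and 608 rose at 2-fold, 7 more named genes were called (TRPS1, ERBB2, TOP2A, MKI67, SQLE, FASN and LGALS3BP), the named genes with an interaction went from 18 to 48 (a block fit chosen after seeing the data), and no other call of a named gene changed. Of the 121 named genes called, AKAP2 was lost with DESeq2, and EGFR with all 12 libraries in 1 model (edgeR adjusted p = 0.074) and without any of 4 single libraries. GATA3, at 0.00 and not called, took the opposite sign with no filter (-0.01), all 12 libraries in 1 model (-0.01), FOXA1 siRNA replicate 2 (-0.00) or 3 (-0.03) left out, and both replicates 2 left out (-0.00), and ranged from -0.03 to 0.03 with each library left out. Small changes at low counts are not detectable with 3 libraries a group.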
